A study of Mus musculus with 38 samples.

Results

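Cultured 4T1 cells were given exosomes of insulin resistant (IR) or of insulin sensitive (IS) adipocytes, and the 2 treatments are compared here with each other. The comparison rests on 3 IR and 3 IS libraries of bulk messenger RNA, 6 of the 38 samples of the series, chosen by the treatment in their titles. A further 3 libraries of untreated 4T1 cells serve as the reference level and shared the fit. Genes that differed between IR and IS were sorted by whether IR was a weaker form of the IS effect, a stronger form of it, or lay on the other side of untreated cells. The series concerns triple-negative breast cancer, for which the mouse mammary adenocarcinoma line 4T1 is the model, and it also holds brain clonogenic cultures, primary tumours and cells given a small RNA. The adipocytes were differentiated from the mouse line 3T3-L1. Exosomes were added at the start, and cells were grown for 72 h to 70% confluency in medium with serum. No exosomes of any source were added to the untreated cells. Neither the way in which resistance was produced nor the exosome dose is given in the sources used here. All 9 libraries come from the same cell line in culture, without stroma or immune cells, and the labels call them biological replicates without naming separate cultures. The p values therefore measure only the spread between these samples, which may be technical. In bulk RNA, fewer cells of a kind and less RNA per cell cannot be told apart.

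Exosomes are small vesicles that carry RNA, proteins and lipids between cells, and those of fat cells can deliver lipid to tumour cells. Cells sense their sterol content through the INSIG and SCAP proteins: when sterols are scarce, the transcription factor SREBP2 is released and switches on the genes of cholesterol synthesis and uptake, and when sterols are plentiful it is held back. A shortage of amino acids or stress in the endoplasmic reticulum raises the translation of another factor, ATF4, whose targets make and import amino acids. Both programmes are known to be active in growing tumour cells.

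Library totals ran from 8455412 to 12785398 counts, and 10888 genes reached 3 CPM in at least 3 of the 9 libraries. Levels are given as CPM, the read count scaled to a common library size, which compare a gene between libraries but not genes with each other. The 10 epithelial markers of 4T1 cells, among them Epcam and the keratins Krt8 and Krt18, were present in all 9 libraries. Of 16 adipocyte markers, 7 were at 0 in all 9 libraries, Adipoq, Lep, Cfd and Cidec among them, and 15 were under 1 CPM in each. Their summed level was 6.87 to 8.35 CPM with IR, 7.86 to 10.2 CPM with IS and 7.79 to 12.2 CPM without exosomes, nearly all of it from Lipe. Of 15 fibroblast and preadipocyte markers 6 were at 0, and the sums were 24.5 to 26.7 CPM with IR, 28.1 to 33.6 CPM with IS and 12.7 to 16.1 CPM in untreated cells. Most of this was Pdgfra. Of 13 haematopoietic markers 5 were at 0. Summed RNA of the 13 measured genes encoded in mitochondria was 5308, 926 and 4257 CPM in IR libraries 1 to 3 and 6283, 4798 and 4344 CPM in IS libraries 1 to 3. IR library 2 was thus low, as untreated library 2 was to a lesser degree at 2778 CPM against 5919 and 3799 CPM in the other untreated libraries.

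IR and IS exosomes differed in many genes by small amounts. The quasi-likelihood test of edgeR called 683 of 10888 genes at an adjusted p of 0.05 (6.27%), 307 higher with IR (2.82%) and 376 lower (3.45%). The median size of the difference among called genes was 1.19-fold (log2 0.25), against a median log2 difference of 0.002 over all genes tested. Only 64 called genes differed by 1.5-fold or more and 7 by 2-fold or more. In each of the 683 genes the 3 IR libraries lay wholly above or below the 3 IS libraries, which was so for 26.6% of all genes tested. The count fell to 375 without IR library 2, 373 without IR library 3, 348 without IS library 1, 370 without IS library 2 and 298 without IS library 3, and was 864 without IR library 1. The called genes differed in base composition. The median GC content of the transcripts was 47.4% in genes higher with IR, 52.6% in genes lower with IR and 49.7% in all genes tested, and with offsets for GC content and length 56.5% of calls were higher with IR against 44.9% without them. Of the 683 genes, 566 were also called with these offsets. The part of base composition in the differences was not tested.

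Against untreated cells IS exosomes changed 2101 genes (19.3%) and IR exosomes 1477 (13.6%), and both comparisons use the same 3 untreated libraries. IR was the weaker form for 237 of the 683 genes (34.7%), with a level between untreated cells and IS. Among these, 64 were called against untreated cells with both exosomes and 173 with IS only. IR was the stronger form for 113 genes (16.5%), 43 of them called with both exosomes and 70 with IR only. For the other 333 (48.8%) the untreated level lay between IS and IR. Most of these did not pass against untreated cells with at least 1 of the exosomes, which does not show that the levels were close. Of them, 125 were called with IS only, 61 with IR only and 138 with neither, and 9 were called in opposite directions. Over all genes tested the same sorting by fitted level gave 40.5%, 31.8% and 27.7%. The sorting is a description of the order of 3 levels. Genes picked for a large difference between IR and IS tend to have the untreated level in the middle, so the shares are not compared.

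**Figure D1:**
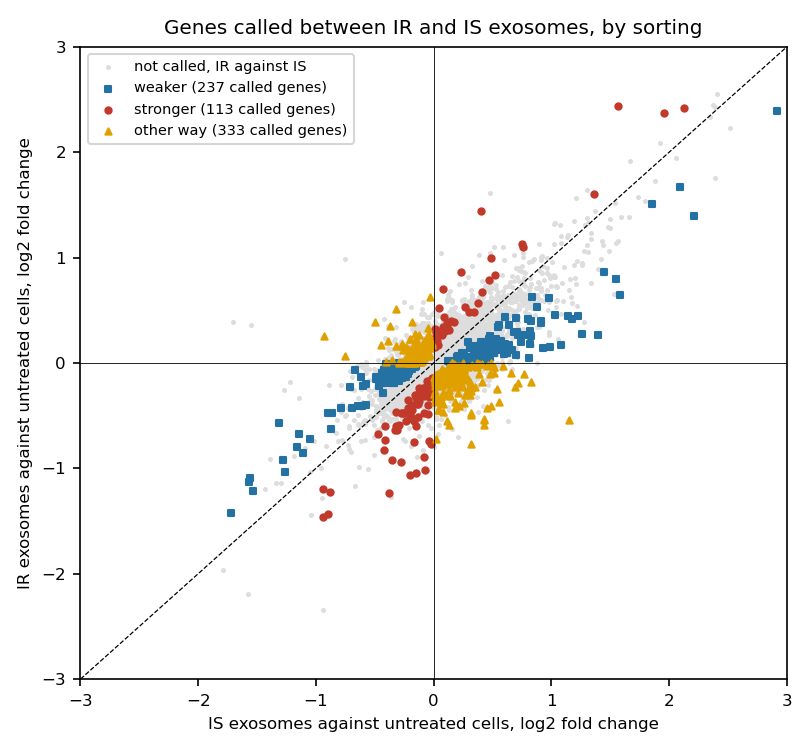
Log2 fold change of IR exosomes (vertical axis) and of IS exosomes (horizontal axis) against the same 3 untreated libraries, 1 point per gene; grey points were not called between IR and IS, squares are the 237 weaker, circles the 113 stronger and triangles the 333 other-way genes, and the dashed line marks equal effects. Called genes lie on both sides of the dashed line; 10 genes are beyond the axes at 3, of which 1, Cxcl5, was called.

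Genes of cholesterol synthesis and uptake were higher with IR than with IS, as a weaker form of the fall seen with IS. Of 24 measured members 12 were higher with IR than with IS and 0 lower, against 2.82% and 3.45% of all genes, and the median log2 difference was 0.24. All 12 were of the weaker form. With IS exosomes 22 of the 24 were below untreated cells (9.32% of all genes tested were called lower) at a median log2 of -0.90 for the list, and with IR exosomes 22 were below them (6.9% of all) at -0.73. The summed level of the 24 genes was 1834, 1769 and 1763 CPM with IR, 1538, 1517 and 1565 CPM with IS and 2984, 3066 and 3083 CPM in untreated cells. The 3 groups did not overlap in this sum, and IR lay nearer to IS than to untreated cells. The count was 8 without IS library 1 or IS library 2 and 10 to 12 without any other single library, all higher.

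The members that were higher with IR span the pathway. Hmgcs1, an enzyme at its entry, was at 90.8, 96.6 and 95.4 CPM with IR, 77.3, 70.3 and 72.4 CPM with IS and 174, 176 and 183 CPM in untreated cells. The 3 ranges were apart, with IR 1.28-fold above IS (log2 0.36 ± 0.050, SE, adjusted p = 0.000606). Fdps, which makes farnesyl diphosphate, had 97.4, 94.9 and 89.6 CPM in the IR libraries and 63.9, 75.0 and 69.2 CPM in the IS libraries, with untreated cells at 200 to 214 CPM. That is 1.36-fold higher with IR (log2 0.44 ± 0.058, adjusted p = 0.000357), where IS had lowered the gene 2.97-fold and IR 2.19-fold. Fdft1 and Sqle, which commit the pathway to sterols, were 1.39-fold and 1.25-fold higher (adjusted p = 0.00171 and 0.000405). Cyp51, which removes a methyl group of lanosterol, had 61.7, 61.9 and 59.0 CPM in the IR libraries and 43.8, 41.1 and 46.3 CPM in the IS libraries. It was 1.39-fold higher with IR (log2 0.47 ± 0.058, adjusted p = 0.000192) and 2.13-fold below untreated cells, against 2.95-fold with IS. Pmvk, Idi1 and Nsdhl, called enzymes of the list outside the naming rule, were 1.31-fold, 1.17-fold and 1.29-fold higher.

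Regulators and carriers of sterols followed the same order. Srebf2, which encodes SREBP2, was 1.18-fold higher with IR than with IS (193 ± 10.5 against 164 ± 5.81 CPM, SD, n = 3 each, adjusted p = 0.00452). Stard4, a carrier that moves sterol between membranes, had 46.5, 48.9 and 47.7 CPM in the IR libraries and 35.6, 35.9 and 34.9 CPM in the IS libraries, 1.35-fold higher (log2 0.43 ± 0.060, adjusted p = 0.000652). Insig1, which holds SREBP2 back and is itself a target of it, was 1.24-fold higher (log2 0.31 ± 0.070, adjusted p = 0.017). This call did not hold without IR library 2, IS library 1 or IS library 2, with an adjusted p of at most 0.0615. Dhcr7, a late reductase of the pathway named after its value was seen, had a log2 difference of 0.03 (adjusted p = 0.818). In the list of 8 measured sterol efflux and LXR targets 0 genes were called by edgeR or DESeq2, with 1 at an unadjusted p under 0.05. By edgeR 6.27% of all genes were called, so a list of 8 is too short to show fewer calls than that. Abca1, the main efflux pump, held 13 counts over the 3 IR libraries, 13 over the IS libraries and 0 in untreated cells and was not tested.

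**Figure D2:**
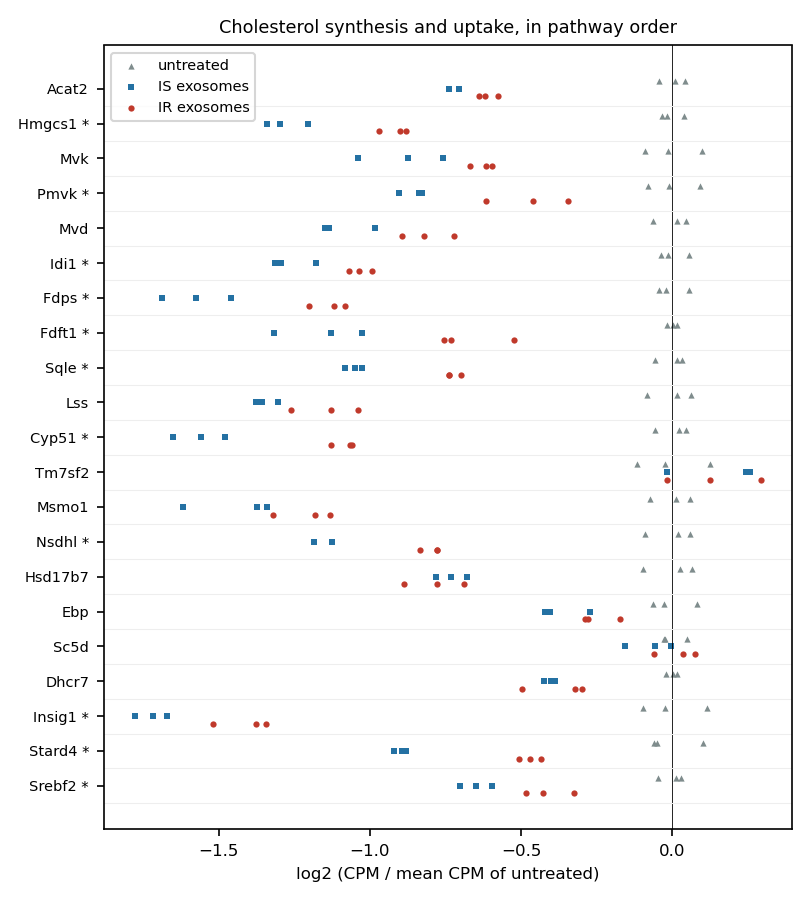
Log2 of CPM relative to the mean of the untreated libraries for 21 of the 24 measured genes of cholesterol synthesis and uptake, in pathway order, 1 point per library (triangles untreated, squares IS, circles IR; a star marks genes called between IR and IS). The circles lie between the squares and the untreated level in each of the 11 starred genes, while Hsd17b7 and Dhcr7 overlap between IR and IS.

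SREBP2 binds sterol regulatory elements near the start of its targets. The promoter of Hmgcs1 is shown because, of those available for called cholesterol genes, only it held a match to this element. In the RefSeq promoter (build GRCm38.p6, from 250 bases before to 50 bases after the start), a match to TCACNCCAC on either strand lay 137 to 129 bases before the start of Hmgcs1. The stretch chr13:119690169-119690267 on the + strand reads, with the match in capitals:
Hmgcs1: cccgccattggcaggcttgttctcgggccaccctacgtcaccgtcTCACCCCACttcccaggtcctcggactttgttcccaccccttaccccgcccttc
This motif was in 1.44% of 27025 promoters, and in 1 of the 7 promoters available for the 12 called cholesterol genes. The shorter box CCAAT, bound by NF-Y, was in all 7 of them and in 41.1% of all promoters. It was also in 9 of the 10 promoters available for members not called, and in 43.3% of those of tested genes. Matches describe the letters and do not show binding.

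Fatty acid genes moved with cholesterol only in part. Of 18 measured genes of fatty acid synthesis and desaturation 3 were higher with IR and 1 lower (against 2.82% and 3.45% of all genes, median log2 0.03). The 3 were desaturases and an elongase. Scd2, which makes monounsaturated fatty acids, was at 587, 616 and 586 CPM with IR, 484, 469 and 473 CPM with IS and 1310, 1420 and 1400 CPM in untreated cells. IR was 1.25-fold above IS and well below untreated cells (log2 0.33 ± 0.036, adjusted p = 7.99e-05). Fads2 and Elovl6 were both 1.20-fold higher with IR (adjusted p = 0.00207 and 0.00442), again as the weaker form. Scd1 was at 38.8 ± 0.974 with IR and 34.7 ± 1.49 CPM with IS and did not pass (adjusted p = 0.136). Fasn, fatty acid synthase, was the exception, 1.1-fold lower with IR (960 ± 54.1 against 1060 ± 19.8 CPM, adjusted p = 0.0349), a call lost in 7 of 19 alternatives. Those were the GC and length offsets, the fit of the 6 exosome libraries and the omission of IR library 1 or 2 or of IS library 1, 2 or 3. On the side of fatty acid breakdown Cpt1a, the gatekeeper of mitochondrial fatty acid import, showed a stronger effect of IR. It was at 105, 108 and 102 CPM with IR, 89.5, 84.3 and 82.5 CPM with IS and 18.5 to 20.2 CPM in untreated cells. It rose 5.36-fold with IR and 4.37-fold with IS, and the difference of 1.23-fold passed (log2 0.30 ± 0.050, adjusted p = 0.00248). Of 23 measured genes of fatty acid oxidation and PPAR targets 2 were higher with IR and 1 lower (against 2.82% and 3.45% of all genes), with a median log2 of -0.01. The lower one, Decr1, which breaks down unsaturated fatty acids, lost its call with DESeq2, in the fit of the 6 exosome libraries and without IR library 2 or 3 or IS library 1, 2 or 3. The count of 2 was 1 without IR library 2. Against untreated cells 16 of the 23 were higher with IS (against 9.97% of all genes) and 14 with IR (against 6.67%).

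Targets of ATF4 were lower with IR than with IS. Of 29 measured members 13 were lower with IR than with IS and 0 higher, against 3.45% and 2.82% of all genes, with a median log2 of -0.19. IR was the stronger form for 8 of the 13, and for the other 5 the untreated level lay between IS and IR. Against untreated cells 19 members were lower with IR (against 6.9% of all genes) and 11 with IS (against 9.32%). The summed level was 3615, 3602 and 3676 CPM with IR, 4051, 4000 and 3986 CPM with IS and 4328, 4298 and 4414 CPM in untreated cells. All 3 IR libraries lay below all IS libraries, which in turn lay below all untreated ones. The count of 13 fell to 8 without IS library 1 and was 10 to 12 without any other single library.

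Enzymes of amino acid and folate metabolism made up most of this group. Asns, which makes asparagine, was at 90.8, 94.6 and 99.7 CPM with IR, 114, 122 and 117 CPM with IS and 144, 145 and 142 CPM in untreated cells. Each step was larger than the spread within groups, with IR 1.24-fold below IS (log2 -0.31 ± 0.047, adjusted p = 0.00156) and 1.51-fold below untreated cells. Mthfd2, of mitochondrial folate metabolism, was 1.21-fold below IS (77.5 ± 2.66 against 94.0 ± 2.42 CPM, adjusted p = 0.00331). Psat1, Phgdh and Psph, the 3 enzymes of serine synthesis, were 1.14-fold, 1.10-fold and 1.17-fold lower, and the amino acid transporter pair Slc7a5 and Slc3a2 1.15-fold and 1.13-fold lower. The called members outside the naming rule are these 5, Aars and Aldh18a1 (1.14-fold and 1.16-fold lower) and Sesn2, a stress sensor that curbs mTORC1 (1.57-fold lower, adjusted p = 0.041). Gpt2, an aminotransferase that uses alanine, had 17.2, 15.1 and 17.5 CPM in the IR libraries and 26.0, 23.9 and 22.4 CPM in the IS libraries, while untreated cells were at 21.4 to 23.7 CPM. It was 1.45-fold lower with IR (log2 -0.54 ± 0.092, adjusted p = 0.00281), and IS did not differ from untreated cells beyond the test (log2 0.08, adjusted p = 0.576).

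Regulators within the programme split. Atf5, a related transcription factor, was at 23.3, 22.8 and 23.8 CPM with IR, 34.8, 34.4 and 33.6 CPM with IS and 29.0, 30.5 and 31.0 CPM in untreated cells. The groups did not overlap, and IR was 1.47-fold below IS (log2 -0.55 ± 0.069, adjusted p = 0.000217). Trib3, a pseudokinase that curbs ATF4, was 1.53-fold lower with IR (log2 -0.61 ± 0.12, adjusted p = 0.00534). The messenger of Atf4 itself had 190, 200 and 200 CPM in the IR libraries and 204, 193 and 200 CPM in the IS libraries, which overlap (log2 -0.02 ± 0.036, adjusted p = 0.844). Both lay below the untreated 241 to 248 CPM, by 1.24-fold and 1.23-fold. Ddit3, the stress factor CHOP, ranged over 3.63 to 6.38 CPM in IR and 6.66 to 8.22 CPM in IS libraries and did not pass (log2 -0.51 ± 0.21, adjusted p = 0.151). Of 22 chaperones and other genes of the unfolded protein response 0 were called between IR and IS by edgeR or DESeq2. By edgeR 6.27% of all genes were called, so a list of 22 can hardly show fewer calls than that. At an unadjusted p under 0.05, 2 of the 22 were higher and 4 lower.

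**Figure D3:**
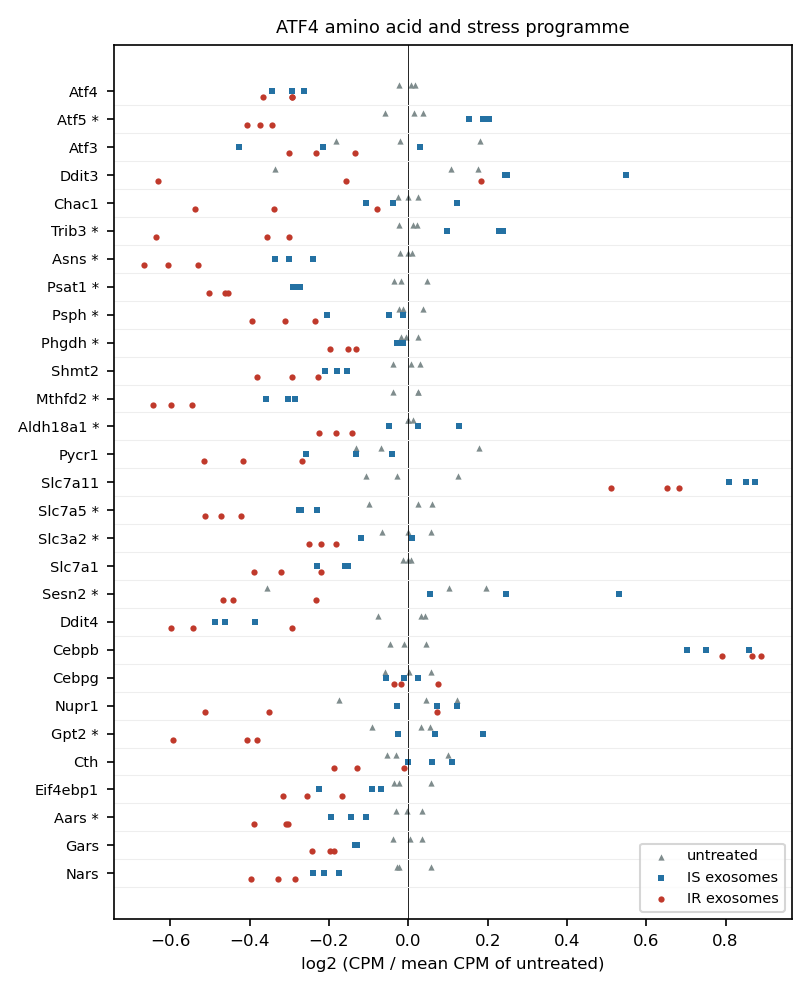
Log2 of CPM relative to the mean of the untreated libraries for the 29 measured genes of the ATF4 programme, 1 point per library (triangles untreated, squares IS, circles IR; a star marks the 13 genes called between IR and IS). In the starred genes the circles lie left of the squares, while the circles and squares of Atf4 itself overlap.

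The promoter of Asns is 1 of 3 among the called members that held a match to the ATF4 site. It is shown because the gene is a classic ATF4 target. Its RefSeq promoter (GRCm38.p6) held a match to TGATGNAA, the ATF4 site, 23 to 16 bases before the start. The stretch chr6:7693210-7693277 on the - strand reads, with the match in capitals:
Asns: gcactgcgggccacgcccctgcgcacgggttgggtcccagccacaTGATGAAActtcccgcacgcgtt
Searched on both strands, this motif was in 4.51% of all promoters and in 2.42% of those of tested genes. Of the ATF4 genes with a promoter, 3 of 12 called members held it and 6 of 13 members not called.

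Epithelial genes called between IR and IS were mostly higher with IR. Of 27 measured junction and keratin genes 7 were higher with IR and 1 lower, against 2.82% and 3.45% of all genes, with a median log2 of 0.04. The difference was positive in 16 members and negative in 11, and the called ones were 5 weaker, 0 stronger and 3 other way. Against untreated cells 11 were lower and 2 higher with IS (9.32% and 9.97% of all genes). With IR 7 were lower and 2 higher (6.9% and 6.67%). Epcam, an adhesion protein of epithelia, was at 202, 208 and 189 CPM with IR, 139, 139 and 153 CPM with IS and 175, 193 and 170 CPM in untreated cells. IR and IS were apart by 1.39-fold (log2 0.47 ± 0.054, adjusted p = 0.000102). IS lay below untreated cells (log2 -0.32, adjusted p = 0.000585), while IR, whose range overlapped the untreated one, did not pass (log2 0.16, adjusted p = 0.064). Krt18, a keratin of simple epithelia, was at 792, 817 and 814 CPM with IR, 653, 617 and 644 CPM with IS and 880 to 905 CPM in untreated cells, 1.27-fold above IS (log2 0.34 ± 0.032, adjusted p = 2.27e-05). Its partner Krt8 had 1210, 1210 and 1180 CPM with IR and 951, 1010 and 983 CPM with IS (1.22-fold, adjusted p = 3.61e-05), and the untreated 1200 to 1220 CPM overlapped IR only. Krt7 was 1.15-fold higher with IR (adjusted p = 0.00248). Cdh1, E-cadherin, went the other way without passing, at 333 ± 6.26 with IR and 357 ± 7.02 CPM with IS (log2 -0.10 ± 0.035, adjusted p = 0.0967), and Krt19, the list's only lower call, was 1.19-fold lower. Without IR library 2 or 3 or IS library 1, 2 or 3 the counts were 4 higher and 0 lower, and with DESeq2 5 higher and 0 lower. Epcam, Krt8, Krt18 and Krt7 kept their calls in all 19 alternatives. Vim, the mesenchymal filament, was at 3020 ± 53.4 with IR, 3240 ± 30.2 with IS and 2980 ± 39.9 CPM in untreated cells, a 1.07-fold difference (adjusted p = 0.0145) that was lost without IR library 2 or IS library 3.

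Genes of the extracellular matrix were mostly lower with IR. Of 36 measured matrix and protease genes 12 were lower and 2 higher, against 3.45% and 2.82% of all genes, with a median log2 of -0.15, and the 14 called genes were spread over the sorting, with 6 weaker, 5 stronger and 3 other way. The summed fibroblast and preadipocyte markers, mostly Pdgfra, were also lower with IR (24.5 to 26.7 CPM) than with IS (28.1 to 33.6 CPM), while Col1a1 was at most 1.38 CPM in any IR or IS library. Pdgfra itself was at 22.4 to 24.3 CPM with IR, 25.2 to 31.0 CPM with IS and 11.3 to 15.1 CPM in untreated 4T1 cells. In all 9 libraries 6 of the 15 markers were at 0, Col3a1, Lum and Thy1 among them. Any part of fibroblasts or preadipocytes in the matrix result was not tested. Thbs1, thrombospondin 1, was at 238, 232 and 244 CPM with IR, 353, 330 and 344 CPM with IS and 625, 652 and 644 CPM in untreated cells. The 3 groups were far apart, with IR 1.44-fold below IS (log2 -0.53 ± 0.038, adjusted p = 2.82e-06) and 2.69-fold below untreated cells. Ccn2, connective tissue growth factor, had 110, 95.8 and 109 CPM in the IR libraries and 173, 154 and 168 CPM in the IS libraries, 1.58-fold lower (log2 -0.66 ± 0.057, adjusted p = 1.58e-05). The matrix protease Adamts1 was 1.43-fold lower (41.3 ± 2.19 against 59.3 ± 2.86 CPM, adjusted p = 0.000104), and Mmp9, a gelatinase, 1.24-fold lower (183 ± 2.53 against 227 ± 7.31 CPM, adjusted p = 0.000195). Untreated cells held more of both, at 113 ± 4.05 CPM of Adamts1 and of Mmp9 296 to 316 CPM.

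Among the called genes of the weaker form were 4 collagens, Col4a2, Col5a1, Col6a1 and Col16a1, named outside the naming rule. They were raised by IS over untreated cells by log2 0.34, 0.57, 0.88 and 0.47. With IR the values were 0.11, 0.21, 0.53 and 0.23, of which that of Col4a2 did not pass against untreated cells (adjusted p = 0.107). Col12a1, a collagen that links fibrils, lay on either side of untreated cells: 9.33, 12.1 and 12.1 CPM with IR, 21.2, 21.5 and 21.8 CPM with IS and 13.1 to 17.1 CPM without exosomes. IR was 1.92-fold under IS (log2 -0.94 ± 0.12, adjusted p = 0.000276), and its difference between IR and untreated cells did not pass (log2 -0.37, adjusted p = 0.0646). Lamb3, a laminin chain of epithelial basement membrane, was at 132, 125 and 131 CPM with IR, 168, 171 and 168 CPM with IS and 157 to 165 CPM in untreated cells, 1.30-fold below IS (adjusted p = 3.46e-05). Col18a1 and the hyaluronan synthase Has2, also named to complete the list, were the 2 called members higher with IR, by 1.17-fold and 1.21-fold. Fibronectin (Fn1) and osteopontin (Spp1), named after their values were seen, were at log2 -0.04 and 0.06 (adjusted p = 0.684 and 0.322).

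**Figure D4:**
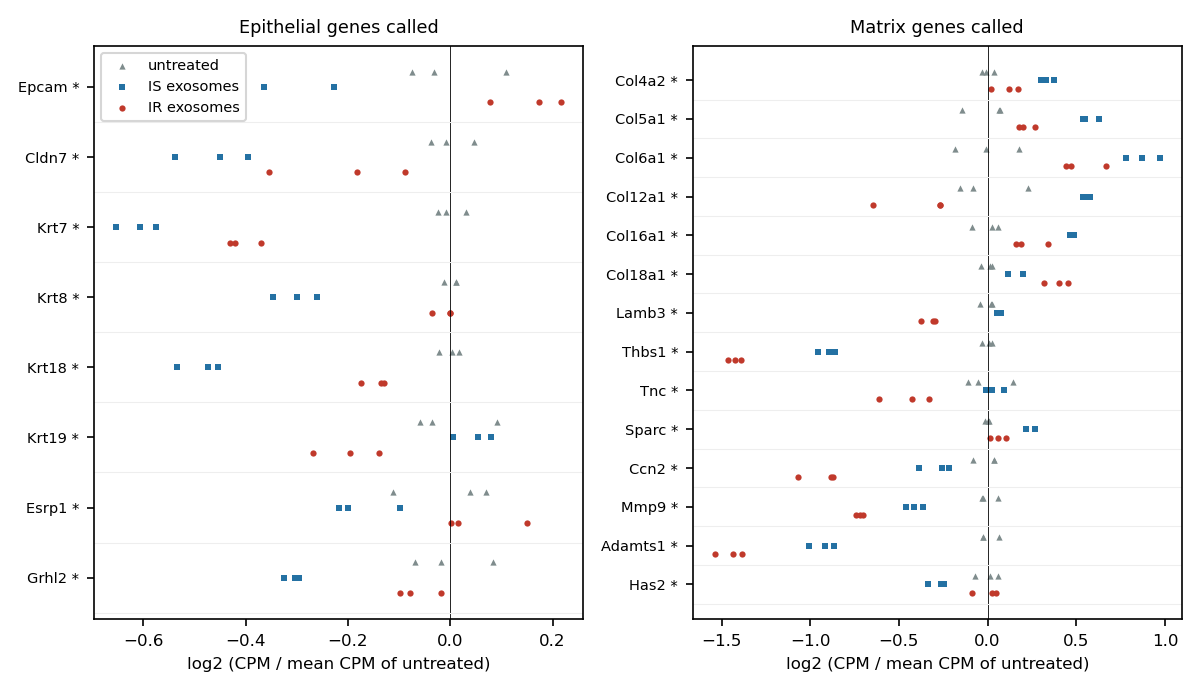
Log2 of CPM relative to the mean of the untreated libraries for the called epithelial genes (left) and the called matrix genes (right), 1 point per library (triangles untreated, squares IS, circles IR; the 2 horizontal scales differ). Krt8 circles sit at the untreated level with the squares to their left, whereas Thbs1, Ccn2, Mmp9 and Adamts1 have the circles farthest to the left.

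Of 25 measured genes of NF-kB signalling, cytokines and chemokines 6 were lower with IR and 0 higher, against 3.45% and 2.82% of all genes, with a median log2 of -0.02. Against untreated cells 14 of the 25 were higher with IS (against 9.97% of all genes) and 14 with IR (against 6.67%). Cxcl5, which attracts neutrophils, had 248, 262 and 273 CPM with IR, 299, 313 and 312 CPM with IS and 7.93 to 9.30 CPM in untreated cells. The 2 treated groups did not overlap and differed by 1.18-fold (log2 -0.24 ± 0.042, adjusted p = 0.00316), beside a rise of 31-fold with IR and 36.6-fold with IS. Cxcl3, a close relative, was 1.75-fold lower with IR (6.74 ± 0.831 against 11.8 ± 1.16 CPM, adjusted p = 0.00623). Ptgs2, the prostaglandin enzyme cyclooxygenase 2, had 306, 344 and 315 CPM in the IR libraries and 427, 395 and 404 CPM in the IS libraries. It was 1.27-fold lower with IR (log2 -0.34 ± 0.048, adjusted p = 0.000652), where the untreated 290 to 318 CPM overlapped IR. Ccl2, which draws monocytes, was 1.44-fold lower (13.1 ± 1.01 against 19.0 ± 1.72 CPM, adjusted p = 0.0237), a call lost without IR library 1 or 3 or IS library 1, 2 or 3. Over untreated cells, at 2.50 ± 0.804 CPM, Ccl2 rose 5.23-fold with IR and 7.56-fold with IS. Icam1, an adhesion receptor for leukocytes, had 6.78, 7.08 and 8.35 CPM in the IR libraries and 10.6, 12.4 and 11.4 CPM in the IS libraries, 1.54-fold lower (log2 -0.63 ± 0.13, adjusted p = 0.0105).

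Several of the most induced genes did not pass between IR and IS. Il1a, Cxcl1, Csf3 and C3, which rose 5.24-fold to 22.7-fold with either exosome, had log2 differences of -0.10, 0.12, 0.04 and -0.02 between them (adjusted p = 0.313, 0.304, 0.685 and 0.901). Their standard errors were 0.056, 0.069, 0.050 and 0.056 on the log2 scale. Lcn2, which binds bacterial iron carriers, had 22.4, 20.6 and 24.3 CPM in the IR libraries and 18.4, 18.7 and 18.9 CPM in the IS libraries, groups that do not overlap, but did not pass (log2 0.26 ± 0.095, adjusted p = 0.11).

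Some genes of cell division were higher with IR. Of 30 mitosis genes 7 were higher and 0 lower (median log2 0.10), and of 32 genes of DNA replication and nucleotide supply 5 were higher and 0 lower (median 0.09), against 2.82% and 3.45% of all genes. A negative difference was found in 4 of the mitosis genes and 7 of the replication genes. Bub1b, a spindle checkpoint kinase, was at 164, 164 and 165 CPM with IR, 140, 135 and 146 CPM with IS and 167 to 178 CPM in untreated cells (1.17-fold, log2 0.23 ± 0.039, adjusted p = 0.0029). IS was the group that stood lower. Mcm7, a subunit of the replication helicase, had the same order with 265 ± 2.44, 224 ± 6.44 and 273 ± 5.25 CPM (1.18-fold, adjusted p = 0.000889). Ung, which removes uracil from DNA, was 1.40-fold higher with IR (32.0 ± 0.905 against 22.9 ± 1.40 CPM, adjusted p = 0.00165). Nusap1, a spindle protein, was 1.35-fold higher (adjusted p = 0.00274). The count of 7 fell to 4 without IR library 3 or IS library 2, and the count of 5 to 3 without IR library 3, IS library 2 or IS library 3 and to 2 without IS library 1. Mki67, the common proliferation marker, had 423, 526 and 466 CPM in the IR libraries and 458, 438 and 449 CPM in the IS libraries, which overlap (log2 0.07 ± 0.057, adjusted p = 0.491). Of 76 ribosomal protein genes 6 were higher with IR and 0 lower, against 2.82% and 3.45% of all genes, Rpl3 among them (1.14-fold, adjusted p = 0.00174). The log2 difference was positive in 75 of 76, at a median of 0.09 against 0.002 over all genes tested. The count of 6 was 1 without IR library 2, 2 without IS library 1, 3 without IS library 3, 13 without IR library 1 and 22 with no filter on low counts. Reads of ribosomal protein genes can be shared with their many processed copies.

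The linker histone H1f0, which packs chromatin in slowly dividing cells, fell with IS exosomes and did not pass with IR. It was at 389, 375 and 371 CPM with IR, 232, 260 and 258 CPM with IS and 395, 380 and 418 CPM in untreated cells. IS stood apart from both other groups, and IR was 1.51-fold above IS (log2 0.60 ± 0.048, adjusted p = 6.46e-06). Against untreated cells IR was at log2 -0.07 (adjusted p = 0.356). Other weaker genes were lower with IR. Adgrg1, an adhesion receptor that binds collagen III, was at 22.5, 21.9 and 22.5 CPM with IR, 34.4, 32.0 and 32.8 CPM with IS and 14.6 to 17.1 CPM in untreated cells. It was raised 2.04-fold by IS and 1.37-fold by IR, and the 2 differed by 1.48-fold (log2 -0.57 ± 0.077, adjusted p = 0.000489). Dlg4, a scaffold protein best known from synapses, was 1.51-fold lower with IR (10.9 ± 0.513 against 16.6 ± 1.45 CPM, adjusted p = 0.00464).

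Some rises were stronger with IR. Prl2c2, a placental prolactin-like hormone also called proliferin, was at 13.6, 13.5 and 14.4 CPM with IR, 7.80, 7.63 and 7.14 CPM with IS and 2.02 to 3.52 CPM in untreated cells. The 3 groups were apart, and IR was 1.84-fold above IS (log2 0.88 ± 0.15, adjusted p = 0.00248), although near-identical copies of the gene make its counts uncertain. Slc39a10, a zinc importer, was at 159, 177 and 164 CPM with IR, 119, 118 and 114 CPM with IS and 78.6 to 87.6 CPM in untreated cells (1.42-fold, log2 0.51 ± 0.051, adjusted p = 3.46e-05). In the same list Mt1, a metallothionein that binds zinc, was 1.27-fold lower with IR (33.3 ± 2.37 against 42.4 ± 3.62 CPM, adjusted p = 0.0109), a call lost without IS library 3 (adjusted p = 0.0508). Ccng2, a cyclin induced by FOXO factors when insulin signalling is low, was at 27.3, 24.0 and 22.2 CPM with IR, 16.1, 16.5 and 14.9 CPM with IS and 12.6 to 15.3 CPM in untreated cells. It was 1.55-fold above IS (log2 0.63 ± 0.10, adjusted p = 0.00212), and only IR passed against untreated cells (1.81-fold, adjusted p = 3.34e-05).

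Some stronger falls with IR were in genes for which IS did not pass against untreated cells. Atp1b1, the beta subunit of the sodium pump, was at 21.1, 23.7 and 20.7 CPM with IR, 38.2, 39.9 and 37.4 CPM with IS and 38.6 to 42.3 CPM in untreated cells. IS and untreated cells overlapped and IR lay far below, 1.76-fold under IS (log2 -0.81 ± 0.074, adjusted p = 1.88e-05). Podnl1, a leucine-rich matrix protein, was 1.69-fold lower with IR (35.3 ± 3.59 against 59.3 ± 1.68 CPM, adjusted p = 3.61e-05), beside 60.4 ± 5.46 CPM in untreated cells. Both Wnt ligands called, Wnt10a and Wnt7a, were of this kind. Wnt10a was at 11.3, 12.1 and 12.1 CPM with IR, 23.6, 18.8 and 21.7 CPM with IS and 24.0 to 25.8 CPM in untreated cells, 1.82-fold below IS (log2 -0.86 ± 0.10, adjusted p = 0.000124). Wnt7a was 1.31-fold lower (48.5 ± 0.968 against 63.3 ± 3.21 CPM, adjusted p = 0.00144). Of 10 measured Wnt ligands and targets these 2 were lower and 0 higher, against 3.45% and 2.82% of all genes. The other 8 were not called, and the list's median log2 was -0.05.

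In a further set the fitted untreated level lay in the middle. In the genes given here it was not set apart on both sides. The untreated libraries overlapped those of IS for Stab1 and Ass1 and those of IR for Ptpn22. Stab1, a scavenger receptor known from macrophages and liver endothelium, was at 11.3, 10.3 and 15.4 CPM with IR, 26.8, 25.9 and 25.7 CPM with IS and 17.2 to 25.9 CPM in untreated cells. IR was 2.12-fold below IS (log2 -1.09 ± 0.15, adjusted p = 0.00048), and only IR passed against untreated cells. Ass1, which makes the precursor of arginine, was at 31.4, 28.9 and 31.0 CPM with IR, 47.9, 51.9 and 51.2 CPM with IS and 45.6, 50 and 42.3 CPM in untreated cells. IR lay 1.65-fold under IS (log2 -0.72 ± 0.071, adjusted p = 2.94e-05) and 1.51-fold below untreated cells, while IS did not pass (adjusted p = 0.191). Ptpn22, a phosphatase of immune receptors, differed through IS: 42.2, 44.4 and 44.7 CPM with IR, 73.9, 63.5 and 64.2 CPM with IS and 40.1 to 48.1 CPM in untreated cells (1.54-fold, log2 -0.62 ± 0.072, adjusted p = 0.000117).

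Irs1, the adaptor that carries the insulin and IGF signal from the receptor, was lower with IR than with IS exosomes. It was at 16.2, 12.9 and 17.0 CPM with IR, 22.3, 23.5 and 22.5 CPM with IS and 17.9, 17.9 and 18.3 CPM in untreated cells. The groups did not overlap, and IR was 1.48-fold below IS (log2 -0.57 ± 0.099, adjusted p = 0.00316). Against untreated cells the rise with IS passed (log2 0.33, adjusted p = 0.0251), and the fall with IR did not (log2 -0.23, adjusted p = 0.159). Insr, the insulin receptor, ranged over 50.3 to 58.0 CPM in IR and 48.7 to 55.0 CPM in IS libraries, which overlap (adjusted p = 0.506), and Irs2 was at 64.8 ± 2.68 and 71.5 ± 3.10 CPM (adjusted p = 0.127). Of 23 measured genes of insulin and IGF signalling 2 were higher with IR (against 2.82% of all genes), Igfbp4 and Ccng2, and 3 lower (against 3.45% of all), Irs1, Igfbp7 and Igf2r, the last of these named to complete the list. Igfbp4, a binding protein that holds IGF, was at 1670, 1660 and 1650 CPM with IR, 1480, 1520 and 1540 CPM with IS and 1180 to 1200 CPM in untreated cells, a small but well separated difference (1.10-fold, adjusted p = 0.00531). Igfbp7 was 1.20-fold lower with IR (103 ± 1.01 against 123 ± 4.37 CPM, adjusted p = 0.00254). Untreated cells were at 105 ± 2.64 CPM, from which IS differed (log2 0.23, adjusted p = 0.00201) and IR did not pass (log2 -0.04, adjusted p = 0.644).

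Of all genes tested, 9 were called against untreated cells with both exosomes in opposite directions. For 6 of them IS was above and IR below untreated cells. Slco4a1, a transporter of organic anions such as thyroid hormone, was at 10.1, 10.1 and 10.5 CPM with IR, 20.1, 21.2 and 19.2 CPM with IS and 15.5, 13.4 and 15.7 CPM in untreated cells (log2 -0.97 ± 0.10 between IR and IS, adjusted p = 4.35e-05). Ccnd2, cyclin D2 of the G1 phase, was at 117, 120 and 125 CPM with IR, 171, 176 and 164 CPM with IS and 133, 143 and 136 CPM in untreated cells (log2 -0.50 ± 0.044, adjusted p = 1.75e-05). In both genes the 3 groups were wholly apart. Arhgap29, which damps RhoA, Mical2, an enzyme that oxidises actin, and St6galnac4, a sialyltransferase, differed by log2 -0.60, -0.57 and -0.49, and Csf1, the growth factor of macrophages, by -0.29 (310, 303 and 331 CPM with IR against 379, 379 and 395 CPM with IS). For the other 3 genes IR was above and IS below untreated cells. Plxnb1, a semaphorin receptor, was at 110, 104 and 107 CPM with IR, 77.6, 83.0 and 77.3 CPM with IS and 95.6, 85.5 and 90.9 CPM in untreated cells (log2 0.43 ± 0.054, adjusted p = 0.00023). Bnip3l, a receptor for the removal of mitochondria, and the histone gene H3f3a, whose reads may be shared with its near-identical copies, were higher by log2 0.34 and 0.27. All 9 kept the call between IR and IS in every one of the 19 alternatives. Their steps from untreated cells were small, at 1.09-fold to 1.45-fold. The calls on these steps had adjusted p values of up to 0.0458, and how far they held in the alternatives was not examined.

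**Figure D5:**
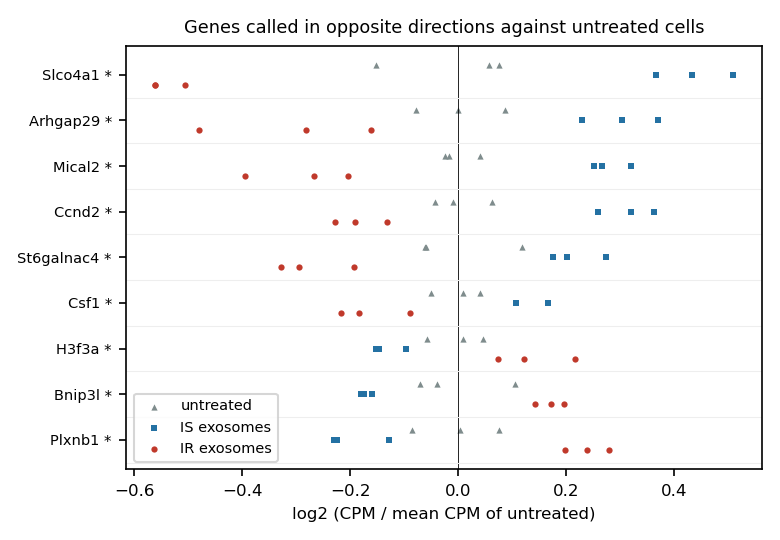
Log2 of CPM relative to the mean of the untreated libraries for the 9 genes called in opposite directions by the 2 exosomes, 1 point per library (triangles untreated, squares IS, circles IR). From Slco4a1 to Csf1 the circles lie left and the squares right of the untreated level, and for H3f3a, Bnip3l and Plxnb1 the order is reversed.

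The remaining lists are given by their counts, beside 3.45% of all genes called lower and 2.82% higher. Of 19 NRF2 targets 3 were lower with IR and 1 higher, 2 without IR library 1. Hmox1, heme oxygenase, was 1.35-fold lower (26.6 ± 1.58 against 36.1 ± 2.35 CPM, adjusted p = 0.00362), and the iron store chains Ftl1 and Fth1 were 1.10-fold and 1.07-fold lower, the latter lost without IR library 2 or 3 or IS library 3. Idh1, which makes NADPH, was 1.28-fold higher (adjusted p = 0.00443). Of 13 p53 targets 2 were lower and 1 higher. The higher one, Cdkn1a, which halts the cell cycle, lost its call in 11 of 19 alternatives, among them DESeq2, the fit of the 6 exosome libraries and the omission of any of those 6 libraries. Of 27 genes of glycolysis and hypoxia 2 were lower and 1 higher, which became 4 and 2 without IR library 1, 1 and 0 without IR library 2 or 3 or IS library 3, 2 and 0 without IS library 1 and 1 and 1 without IS library 2. Of 16 interferon genes 1 was lower, and 0 without IS library 1 or 3. Of 10 mesenchymal genes 2 were lower, 0 without IR library 2 or IS library 3 and 1 without IS library 1. Of 24 immediate early genes 2 were higher, 0 without IS library 1, 1 without IS library 2 or 3 and 3 without IR library 2. Of 12 genes linked to brain metastasis 3 were lower with IR: Ptgs2, Icam1 and Vcam1. The call of Vcam1 was lost without IR library 1 or 3 or IS library 1 or 3. By edgeR 0 of 14 circadian genes, 0 of 21 genes of exosome release and 0 of 13 genes encoded in mitochondria were called, and by DESeq2 also 0 in each. At an unadjusted p under 0.05 these were 2, 5 and 2 genes. With no filter on low counts edgeR called all 13 mitochondrial genes, 2 higher and 11 lower, and without IR library 1 it called 2 lower. With no filter it also called 1 circadian gene lower and 1 gene of exosome release higher. A count of 1 lower was also found for circadian genes without untreated library 3, and of 1 higher for exosome release without IR library 1. The mitochondrial genes had a median log2 of -0.64, which was -0.16 without IR library 2 and -1.06 without IR library 1.

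The same contrast was set beside the brain clonogenic cultures of the series, 5 IR and 5 IS libraries quantified in a separate table. There edgeR called 6 of 12924 genes (0.0464%). Of the 683 genes called in culture 651 were tested in the brain table and edgeR called 0 (DESeq2 36), and 140 (21.5%) had an unadjusted p under 0.05, against 18.1% of all genes tested there. The sign was the same for 301 of the 651 (46.2%), against 49.1% of the 10348 genes tested in both tables. Over all 12924 genes the brain count was 604 with DESeq2. It was 0 without IR library 1 or 2 or IS library 3 or 4, 1 without IS library 5, 2 without IR library 3 or 5, 145 without IR library 4, 200 without IS library 1 and 1171 without IS library 2. The cholesterol, ATF4 and matrix lists had 24, 30 and 43 genes tested in the brain cultures, with median log2 differences of 0.03, 0.14 and 0.12. By edgeR 0 genes were called in each. DESeq2 called 0, 2 and 8 of them, beside 604 of all 12924 genes. At an unadjusted p under 0.05 there were 5, 8 and 14, against 18.1% of all genes tested there. Epithelial markers of 4T1 were low in that table, where Epcam, Krt14, Cldn7 and Esrp1 were under 3 CPM in every library and 9 of the 10 markers lay below their culture level throughout. The cells measured in the 2 systems were therefore not alike in these markers, and the part of this in the comparison was not tested.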

How the data were processed

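Libraries of polyadenylated RNA were stranded and read from both ends, per the labels' protocols. The authors deposited RSEM expected counts per gene, not normalised, per the labels' descriptions, and 97.8% of the values were whole. An nf-core pipeline and DESeq2 are named in the series text, and the submitters' processing notes list Trimmomatic, STAR and featureCounts. The build and strand setting of the culture table are not given in the sources used here, and overlapping genes may share reads. Another 3 columns there fit no sample and were left out. IR columns were matched to their group by name and keep the number in that name. Symbols came by identifier from the tumour table (52139 genes) and a reference table (3257).

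Counts were rounded, filtered at 3 CPM in 3 or more of 9 libraries, scaled with TMM factors and fitted by quasi-likelihood in edgeR 4.0.16 (R 4.3.3), all 9 libraries in 1 fit without covariates. Benjamini-Hochberg adjustment ran over 10888 genes, with calls at 0.05. The standard error (SE) is the log2 difference over the root of F. Levels are CPM with the standard deviation (SD). The biological coefficient of variation was 0.0576. On simulated data the test recovered 53 of 100 genes changed 1.25-fold and 85 of 100 changed 1.5-fold, with 7 false calls. Named genes were up to 6 largest per sorting class and direction (mean of 10 CPM, groups apart), up to 4 per list, genes called in opposite directions and 25 fixed genes. Members and lists were chosen with earlier results of these data known, and no list was tested. Correlations between same-numbered libraries showed no clear pairing by replicate number, although they cannot exclude it. Alternatives were DESeq2 1.42.0, limma 3.58.1 voom, other scalings and filters, the replicate block, single libraries left out, and GC and length offsets, the last of these chosen after seeing the data. The tumour and miRNA experiments were not analysed here. Some single genes that the naming rule or the lists hold are not reported here, although the list counts include them.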

Additional observations from a re-analysis of the deposited data

Results flagged for a closer look

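For 9 genes the effects of IR and IS exosomes against the same untreated cells were both called and had opposite signs, and the difference itself was tested by the IR against IS contrast. That log2 difference was -0.97 for Slco4a1, -0.60 for Arhgap29, -0.57 for Mical2, -0.50 for Ccnd2, -0.49 for St6galnac4 and -0.29 for Csf1. It was 0.43 for Plxnb1, 0.34 for Bnip3l and 0.27 for H3f3a. Both effects share the 3 untreated libraries. The calls against untreated cells were weakest for Arhgap29 with IR (adjusted p = 0.0458) and for Bnip3l with IR (adjusted p = 0.0456).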

How the results depend on the processing

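Of 104 named genes called between IR and IS, 71 kept the call in all 19 alternatives, 24 lost it only when a library was left out, 9 also under another alternative, and 0 reversed. The total of 683 was 205 at an adjusted p of 0.01, 83 higher and 122 lower, and the sorting was then 66 weaker, 42 stronger and 97 other way. Sorted only by tests against untreated cells the classes held 64, 43 and 9 genes, and sorted by libraries that do not overlap 110, 65 and 72. With 1 library left out the total was 298 to 864, with 139 to 378 higher and 159 to 486 lower, and the classes held 106 to 233, 45 to 123 and 147 to 508. The omission of an exosome library leaves 2 against 3. The total stayed within 1.5 times of 683 with DESeq2 (558), voom (748), no filter (966) and other scalings. In the brain cultures DESeq2 called 604 genes (274 higher, 330 lower), the replicate block called 0 (0 and 0) and single omissions gave 0 to 1171 (0 to 620 higher, 0 to 551 lower). Same-numbered IR and IS libraries had deviations that correlated at 0.033, -0.005 and 0.086, and those of unlike number at -0.099 to 0.061. These values show no clear pairing by number, but with 3 libraries per group they cannot exclude it. With the replicate block 618 genes were called in culture, 573 of them among the 683. At the depth and number of libraries used here, simulated 1.25-fold changes were recovered in 53 of 100 genes.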
